A study of Mus musculus with 12 samples.

Results

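PD-1 and its ligands are 3 genes: Pdcd1, which encodes the PD-1 receptor, Cd274, which encodes PD-L1, and Pdcd1lg2, which encodes PD-L2. They were taken by symbol from the 770 genes of the nCounter mouse PanCancer Immune panel, on which hybridized barcoded probes are counted without amplification, and all 3 were among the 750 genes tested, the other 20 being the panel's reference genes. The panel was read in 12 whole A20 tumors, 1 per mouse. A20 is a B-cell lymphoma line of Balb/c origin, and it had been implanted under the skin of female Balb/c mice bought at 7 to 8 weeks of age. From about 7 days after implantation each tumor was injected 3 times, every other day, and it was collected 2 hours after the last injection. In 4 tumors the injection was PBS. In 4 it was SE, the stable oil-in-water emulsion alone. In the other 4 it was GLA-SE, which the study also calls G100, with 10 ug of the synthetic TLR4 agonist glucopyranosyl lipid A in 50 ul of the emulsion at 2%. The SE group is therefore the control for the emulsion, and the PBS group the control for the injection. The volume and emulsion percentage are not given for these SE tumors, so an equal emulsion dose is not documented. No group was left without injection, and 1 tumor line stands for the lymphoma in all 12 tumors.

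PD-1 is an inhibitory receptor that T cells raise after antigen stimulation. When it is bound by PD-L1 or PD-L2, phosphatases recruited to its tail dampen signals of the T cell receptor and of CD28. PD-L1 is inducible on many cell types, tumor cells and macrophages included, with interferon-gamma as its best known inducer, whereas PD-L2 is found mainly on dendritic cells, macrophages and some B cells and responds to IL-4 and GM-CSF as well as to interferons.

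The ligand genes are neighbors in the mouse genome. In the RefSeq annotation of build GRCm38.p6, Cd274 lies at chr19:29362107-29388095 and Pdcd1lg2 at chr19:29410919-29472927, with 22823 bases and 0 other annotated genes between them, while Pdcd1 lies at chr1:94038305-94052553. For each gene, the 250 bases before the start used by the RefSeq promoter table are printed because an interferon-responsive ligand pair shares this locus, with capitals marking each GAAA, the core of the interferon-response element, on either strand (GAAA or TTTC as printed 5′ to 3′ on the strand of the gene). The Pdcd1 sequence is the reverse strand of chr1:94052554-94052803, the Cd274 sequence the forward strand of chr19:29367188-29367437 and the Pdcd1lg2 sequence the forward strand of chr19:29410669-29410918. The Pdcd1 and Pdcd1lg2 sequences abut the annotated gene, but that of Cd274 lies inside the Cd274 interval, which begins further upstream, and the table does not name the transcript whose start it uses.
Pdcd1: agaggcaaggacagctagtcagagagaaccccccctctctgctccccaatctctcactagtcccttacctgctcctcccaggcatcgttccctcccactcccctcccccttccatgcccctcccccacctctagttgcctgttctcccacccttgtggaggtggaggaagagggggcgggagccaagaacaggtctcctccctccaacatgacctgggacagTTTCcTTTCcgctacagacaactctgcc
Cd274: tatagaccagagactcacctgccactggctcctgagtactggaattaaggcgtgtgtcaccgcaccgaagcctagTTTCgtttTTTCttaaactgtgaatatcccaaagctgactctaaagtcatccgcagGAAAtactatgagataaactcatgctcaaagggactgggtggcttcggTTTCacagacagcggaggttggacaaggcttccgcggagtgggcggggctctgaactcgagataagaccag
Pdcd1lg2: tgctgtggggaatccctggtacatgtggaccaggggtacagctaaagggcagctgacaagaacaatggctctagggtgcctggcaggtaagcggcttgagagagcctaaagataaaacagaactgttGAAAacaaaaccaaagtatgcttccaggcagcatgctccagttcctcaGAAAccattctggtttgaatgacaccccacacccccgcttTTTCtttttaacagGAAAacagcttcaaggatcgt
The printed sequence of each ligand gene held 4 such tetramers and that of Pdcd1 held 2. Of 32851 RefSeq mouse promoters, 28.9% held at least 4 and 66.4% at least 2, so neither number is rare. The tetramer was searched after 4 longer motifs had given 0 matches in the windows of the 3 genes, which run from 250 bases before to 50 bases after the start. These motifs, read on both strands, were the STAT site TTCNNNGAA (in 8.30% of all promoters), an interferon-response form of GAAA repeated after any 2 bases (3.44%), an NF-kB form of GGGAA and CC around any 3 bases (5.78%) and the AP-1 form TGANTCA (7.81%). Each motif is a fixed form of its site, so 0 matches do not show that the windows lack other forms.

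Total counts per tumor ran from 812522 to 1086462 after PBS, from 810260 to 1268512 after SE and from 1186487 to 1612415 after GLA-SE. Counts are given below after scaling each tumor by the geometric mean of 16 reference genes, after which the median gene of the panel stood 0.90 above its PBS level on the log2 scale in GLA-SE tumors and 0.51 above it in SE tumors. Markers of the labeled cell type were present in every tumor, with a summed scaled count of 8 B-cell markers (Ms4a1, Cd79a, Cd79b and others) between 13305 and 22975. The SE tumors were not alike: SE tumor 4 had the highest summed T cell (4888), and endothelial and fibroblast (120207) markers of all 12 tumors, its monocyte and macrophage sum was 106492, and its B-cell sum was the lowest. Its reference genes were also the lowest, with a geometric mean of 927 against 1501 to 2806 in the others. The labels give each tumor its own mouse.

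Pdcd1, the receptor gene, was the most scattered of the 3 between tumors of a group, relative to its mean. Its scaled counts were 286, 71.9, 137 and 229 after PBS, 47.3, 110.4, 189 and 135 after SE, and 409, 385, 745 and 240.3 after GLA-SE. GLA-SE tumor 4 lay below PBS tumor 1, so these groups overlapped, whereas the 4 GLA-SE tumors lay above all 4 SE tumors. Means were 181 ± 95.3 after PBS, 121 ± 58.9 after SE and 445 ± 214 after GLA-SE (SD, n = 4 each).

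Cd274, the PD-L1 gene, gave 1182, 805, 917 and 1000.01 scaled counts after PBS, 1375, 972, 1756 and 1204 after SE, and 2132, 3058, 5360.4 and 2751 after GLA-SE. Every GLA-SE tumor stood above every other tumor, with GLA-SE tumor 3 the highest, and the PBS and SE tumors overlapped. Means were 976 ± 159, 1327 ± 330.4 and 3325 ± 1410.5 in the same order (SD, n = 4 each).

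Pdcd1lg2, the PD-L2 gene, gave 117, 82.2, 76.7 and 99.4 scaled counts after PBS, 77.3, 64.4, 108 and 90.8 after SE, and 207, 335, 219.7 and 175 after GLA-SE. Again the 4 GLA-SE tumors stood above all others, here with tumor 2 the highest, and the PBS and SE tumors were intermingled. Means were 93.7 ± 18.03, 85.2 ± 18.8 and 234 ± 69.8 (SD, n = 4 each). Since the tumors were measured whole, more cells of a type and more RNA per cell cannot be told apart for any of the genes.

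**Figure D1:**
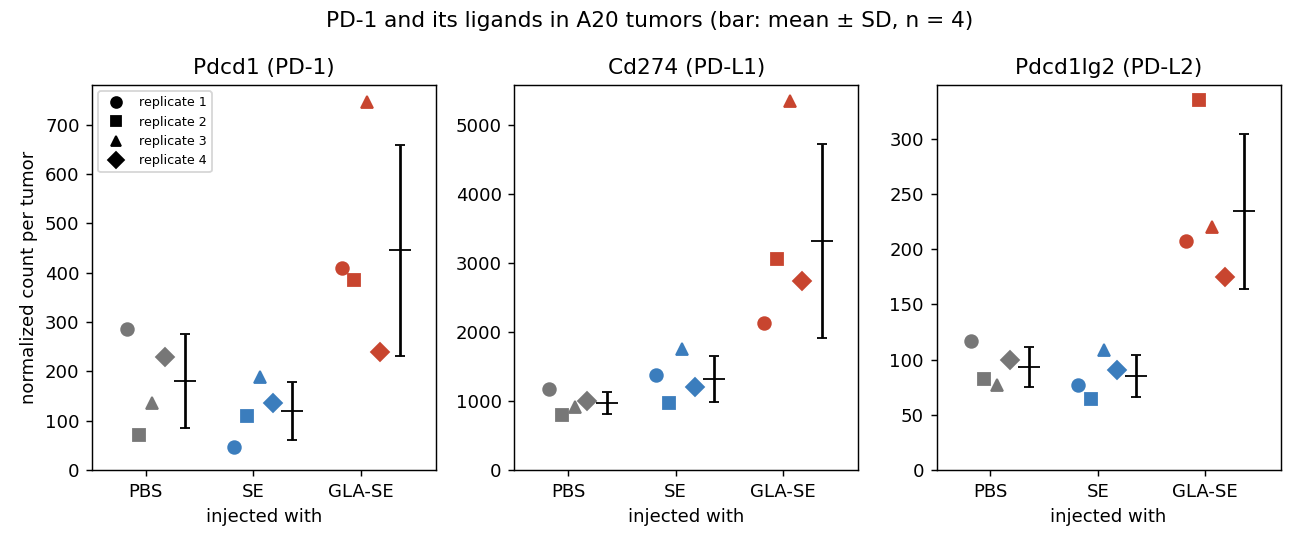
Scaled counts of Pdcd1, Cd274 and Pdcd1lg2 in each of the 12 tumors (points, linear axis from 0, labeled normalized count) by injection, with the group mean ± SD (bar, n = 4). The GLA-SE points of Cd274, 2132 to 5360.4, and of Pdcd1lg2, 175 to 335, lie above all PBS and SE points, while for Pdcd1 the lowest GLA-SE point, 240.3, lies below the highest PBS point, 286.

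Against PBS, the test of GLA-SE asks what the agonist in its emulsion does, and all 3 genes rose (3 of 3 with an adjusted p under 0.05 in edgeR's quasi-likelihood test). On the panel 68.8% of genes were called, 68.4% higher and 0.4% lower, so the count does not set these genes apart from the panel. Cd274 was 3.41-fold higher (log2 fold change 1.77 ± 0.28 SE, 95% interval 1.14 to 2.40, adjusted p = 0.000952) and ranked 96 of the 750 genes by fold change. Pdcd1lg2 was 2.50-fold higher (1.32 ± 0.25, 0.75 to 1.89, adjusted p = 0.00214). Pdcd1 was 2.46-fold higher (1.30 ± 0.47, 0.24 to 2.36, adjusted p = 0.0337).

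Relative to the panel median, the log2 differences were 0.87 for Cd274, 0.42 for Pdcd1lg2 and 0.40 for Pdcd1. GLA-SE tumors lay above PBS tumors without overlap for both ligands, as for 63.7% of the panel, and the two-sided exact permutation test, with 70 possible assignments of the tumors, gave p = 0.0286 for each, the smallest it allows, and p = 0.0571 for Pdcd1. With each tumor scaled to the panel median in place of the reference genes, the differences of Pdcd1 (log2 0.01, adjusted p = 0.979) and of Pdcd1lg2 (0.05, adjusted p = 0.874) were not called, and that of Cd274 was 0.43 (adjusted p = 0.0449). Under that scaling 61 genes rose and 307 fell, against 513 and 3 with the reference genes. The call of Pdcd1 was also lost without PBS tumor 2 (adjusted p = 0.0586), PBS tumor 3 (0.0853) or GLA-SE tumor 3 (0.0839).

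Against PBS, none of the 3 was called after SE alone (0 of 3). Of the panel 0% was called by edgeR, with 134 genes (17.9%) at an unadjusted p under 0.05 and, as adjusted calls, 53 by DESeq2 with the same scaling and 0 by limma. Of the 3, Cd274 had the lowest p with the reference genes (log2 fold change 0.44 ± 0.21 SE, 95% interval -0.04 to 0.93, unadjusted p = 0.0668, adjusted p = 0.256). Pdcd1 had a lower mean after SE (-0.59 ± 0.54, -1.84 to 0.66, adjusted p = 0.467) and ranked 744 of 750, and Pdcd1lg2 gave -0.14 ± 0.30 (-0.82 to 0.54, adjusted p = 0.759). With panel median scaling the values were 0.09 for Cd274 (unadjusted p = 0.826), -1.04 for Pdcd1 (unadjusted p = 0.0370, adjusted p = 0.556) and -0.54 for Pdcd1lg2 (unadjusted p = 0.136), so which gene had the lowest p depended on the scaling. The intervals leave room for changes in either direction.

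Against SE, the comparison that leaves the agonist as the difference if the emulsion doses were equal, all 3 genes had higher means after GLA-SE. None passed the adjusted threshold (0 of 3) in edgeR, which 2.13% of the panel did, all of it higher. The 3 genes lay past an unadjusted p of 0.05, as 17.5% of the panel did in that direction, and their tumors did not overlap, as for 14.7% of the panel. Pdcd1 was 3.70-fold higher (log2 fold change 1.89 ± 0.51 SE, 95% interval 0.71 to 3.06, adjusted p = 0.104) and ranked 32 of 750. Pdcd1lg2 was 2.75-fold higher (1.46 ± 0.34, 0.67 to 2.25, adjusted p = 0.0802, rank 55), and Cd274 was 2.51-fold higher (1.33 ± 0.32, 0.58 to 2.07, adjusted p = 0.0802, rank 70). The two-sided exact permutation test gave p = 0.0286 for each of the 3, the smallest it allows, and the deposited counts without scaling were also fully separated. With all 12 tumors sharing 1 estimate of the spread, the same differences passed the threshold (adjusted p = 0.0453 for Pdcd1, 0.0164 for Cd274 and 0.0144 for Pdcd1lg2). Without SE tumor 4, Pdcd1lg2 was called (adjusted p = 0.0318), and with panel median scaling the differences were smaller and uncalled, at 1.06 for Pdcd1 (adjusted p = 0.173), 0.35 for Cd274 (0.558) and 0.59 for Pdcd1lg2 (0.315).

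The median log2 difference of the 3 genes was 1.32 between GLA-SE and PBS tumors, where that of all 750 genes was 0.90. It was -0.14 between SE and PBS tumors, beside 0.51 for all genes, and 1.46 between GLA-SE and SE tumors, beside 0.25. The comparisons share tumors, so they are not independent of each other.

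**Figure D2:**
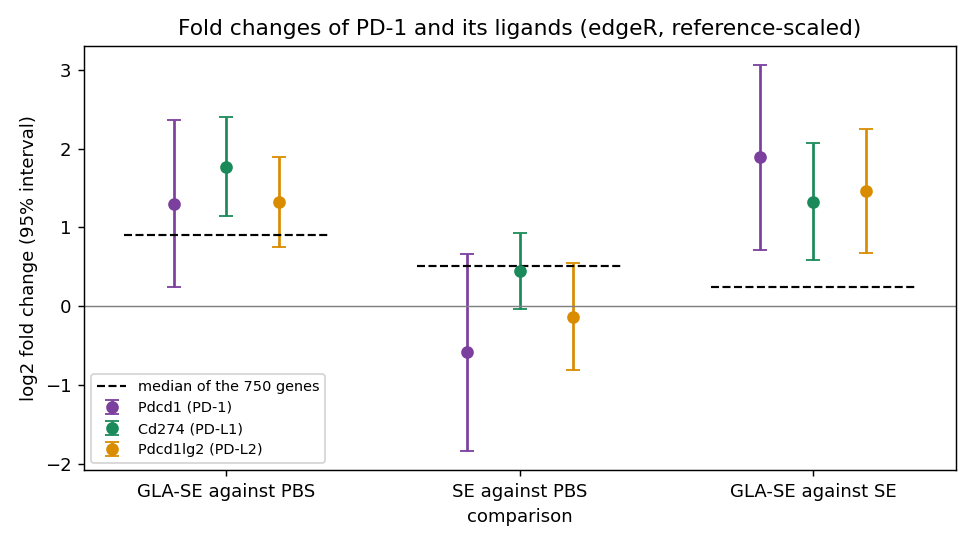
Log2 fold changes of the 3 genes with 95% intervals in each comparison (points and bars), beside the median of the 750 genes tested (dashed line). For SE against PBS the 3 intervals cross 0, and for GLA-SE against SE the 3 estimates, 1.33 to 1.89, lie above the panel median of 0.25.

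Marker genes of several cell types moved in the same tumors, unevenly between types. Against PBS, after GLA-SE, where 68.4% of the panel rose, 8 of 8 monocyte and macrophage markers and 9 of 9 endothelial and fibroblast markers rose. Of T cell markers 4 of 8 rose, of NK cell markers 3 of 4, and of 8 B-cell markers 0 rose and 2 fell. Of dendritic cell markers 1 of 4 rose (Itgax, by 0.92), with Xcr1 at -0.06, Flt3 at 0.29 and Lamp3 at 0.52 not called. Of neutrophil markers 3 of 5 rose, S100a8 by 5.04, Cxcr2 by 3.21 and Csf3r by 2.23. No marker of these lists was called for SE against PBS or for GLA-SE against SE. For monocyte and macrophage markers the median log2 difference from PBS was 1.62 after GLA-SE and 1.28 after SE. Between GLA-SE and SE it was 0.35. For endothelial and fibroblast markers these values were 1.15, 1.79 and -0.37. The summed neutrophil markers were highest, at 8985, in GLA-SE tumor 3, which was also the highest in Cd274. The same tumor had the highest sums of monocyte and macrophage (124448), dendritic cell (1217) and NK cell (1329) markers. This ranking depended on the measure. By the mean log2 value of the markers, SE tumor 4 was the highest for monocytes and macrophages (11.54 against 11.45 in GLA-SE tumor 3). It was also the highest for dendritic cells (7.02 against 6.78). Cd274 in SE tumor 4 was 1204. By both measures GLA-SE tumor 3 was the highest for neutrophil (mean log2 7.98) and NK cell (7.41) markers. The match of Cd274 with neutrophil markers was thus shared by NK cell markers, and it rests on this tumor alone. The sums of T cell, B-cell, and endothelial and fibroblast markers were highest in other tumors. Summed T cell markers ranged from 834 to 2354 after PBS, 703 to 4888 after SE and 2400 to 3369 after GLA-SE. Summed monocyte and macrophage markers ranged from 28968 to 37189, 24189 to 106492 and 83355 to 124448 in the same order. No defining marker of these lists was at 0 in any tumor, but a count above 0 is not by itself detection. The neutrophil markers Camp and Ltf had deposited counts below 20 in all 12 tumors, down to 4 for Camp. Xcr1, Lamp3 and Klrb1c were also low, with group means of 14.1 to 39.1 scaled counts. Among other low markers, the T cell marker Cd2 had group means of 26.4 to 33.8. Cxcr2 had a mean of 18.5 after PBS, the level from which its rise was measured. In SE tumor 4, with the most T cell marker signal, Pdcd1 was 135, within the range of the other SE tumors. The part of the cell types in the changes was not tested beyond the ratios that follow.

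Ratios taken within a tumor are free of the scaling, apart from a pseudocount of 1. The ratio of Cd274 to the mean of the B-cell markers, on the log2 scale, was 0.18, -0.55, -0.22 and -0.10 after PBS, 0.36, -0.23, 0.81 and 0.54 after SE, and 0.94, 1.64, 2.29 and 1.59 after GLA-SE. The GLA-SE tumors were above all others, by 1.79 on average against PBS and by 1.25 against SE, in each case with exact permutation p = 0.0286 and p = 0.143 after Benjamini-Hochberg adjustment over the 15 ratio comparisons. Against monocyte and macrophage markers the ratio of Cd274 was 0.77 ± 0.23 after PBS, 0.49 ± 1.41 after SE and 0.76 ± 0.14 after GLA-SE (SD, n = 4 each). The groups overlapped, and GLA-SE differed from PBS by -0.01 (exact permutation p = 0.971).

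Pdcd1lg2 relative to the same myeloid markers was -2.60 ± 0.14 after PBS, -3.45 ± 1.27 after SE and -3.02 ± 0.55 after GLA-SE, without a call (exact permutation p = 0.286 for GLA-SE against PBS, n = 4 each). Pdcd1 relative to the T cell markers was 0.40, -0.15, 0.24 and 0.34 after PBS, -0.45, 0.33, 0.76 and -1.61 after SE, and 0.67, 0.88, 1.34 and -0.13 after GLA-SE. The groups overlapped (exact permutation p = 0.2 against PBS and 0.171 against SE), and the lowest value of all was that of SE tumor 4. The mean difference from PBS, 0.49, was 0.76 without GLA-SE tumor 4 (exact permutation p = 0.0286) and 0.27 without GLA-SE tumor 3 (p = 0.4), and that from SE, 0.93, was 0.48 without SE tumor 4 (p = 0.371).

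The ratio of Pdcd1lg2 to Cd274 was -3.33, -3.28, -3.56 and -3.32 after PBS, -4.14, -3.90, -4.01 and -3.72 after SE, and -3.36, -3.19, -4.60 and -3.97 after GLA-SE on the log2 scale. It was lower in all 4 SE tumors than in all 4 PBS tumors, by 0.57 on average (exact permutation p = 0.0286, adjusted p = 0.143), while neither gene alone was called. The GLA-SE tumors were spread over and beyond both ranges, with tumor 3, the highest in Cd274, at the lowest ratio of all 12.

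**Figure D3:**
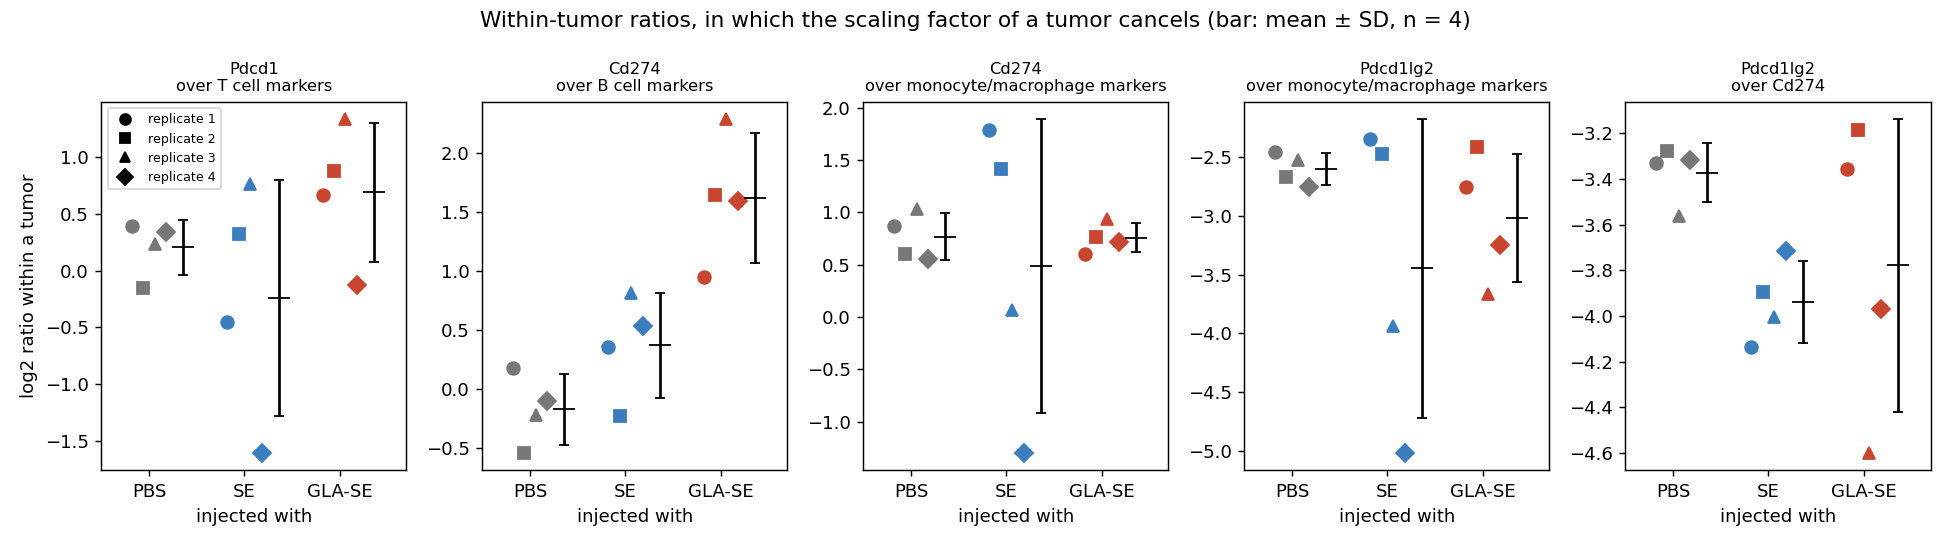
Within-tumor log2 ratios of each gene to marker means and of Pdcd1lg2 to Cd274 (points, 12 tumors by injection) with the group mean ± SD (bar, n = 4), each panel with its own axis range. The Cd274 to B-cell ratio of the GLA-SE tumors, 0.94 to 2.29, lies above all other tumors, and the Pdcd1lg2 to Cd274 ratio of the SE tumors, -4.14 to -3.72, lies below all PBS tumors.

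Of the route from interferon-gamma to PD-L1, the 5 genes reported here all rose after GLA-SE against PBS (5 of 5, median log2 1.19), beside 68.4% of the panel and a panel median of 0.90. Ifng, the cytokine itself, rose by 1.34 (adjusted p = 0.00602), from a low mean scaled count of 22.3 after PBS to 56.9 after GLA-SE. Jak2, a kinase of the interferon-gamma receptor, rose by 1.44, and Irf1, a transcription factor that acts on the Cd274 promoter, by 1.19. Ifngr1 (0.62) and Jak1 (0.80) rose by less than the panel median. Against SE, Irf1 (1.03, adjusted p = 0.0326) was 1 of the 16 genes called over the whole panel, and the other 4 of the route were not called (median of the 5 genes 0.93, beside 0.25 for the panel).

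Of the genes that lead from TLR4, the receptor of the agonist, to NF-kB, 6 of 6 rose against PBS by less than the panel median of 0.90 (median 0.53), Tlr4 itself by 0.52 and Myd88, its adaptor, by 0.81. Of the IL-4 and GM-CSF route to PD-L2, 3 of 6 rose (median 0.80), a smaller share than the 68.4% of the panel. They were Il4ra and Csf2rb, which encode receptor chains, by 1.31 and 1.93, and Stat6, which encodes a transcription factor downstream of Il4ra, by 0.41. The cytokine genes Il4 (0.76), Il13 (0.50) and Csf2 (0.84) did not pass the test, at mean scaled counts of 19.7, 22.9 and 38.7 after GLA-SE.

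Of the transcription factors known to act on Pdcd1, 4 of 6 rose against PBS, a share close to that of the panel, with a median of 0.86 beside 0.90. Among those that rose were Prdm1, which encodes Blimp-1, by 2.02 (adjusted p = 0.000345), Tbx21 by 1.18 and Nfatc2 by 1.15. Eomes (0.56) and Batf (0.28) did not pass. All 7 genes of the T cell receptor, CD28 and B7 group rose, beside 68.4% of the panel, with a median of 0.83 that was below the panel's 0.90. They ran from Pik3cd, a kinase subunit, by 0.40 to Cd80, the B7 ligand that also binds PD-L1, by 2.39 (adjusted p = 0.00472). Cd86, the other B7 ligand, rose by 1.31. In these 4 groups no gene was called for GLA-SE against SE, and no gene of any of the 5 groups for SE against PBS.

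**Figure D4:**
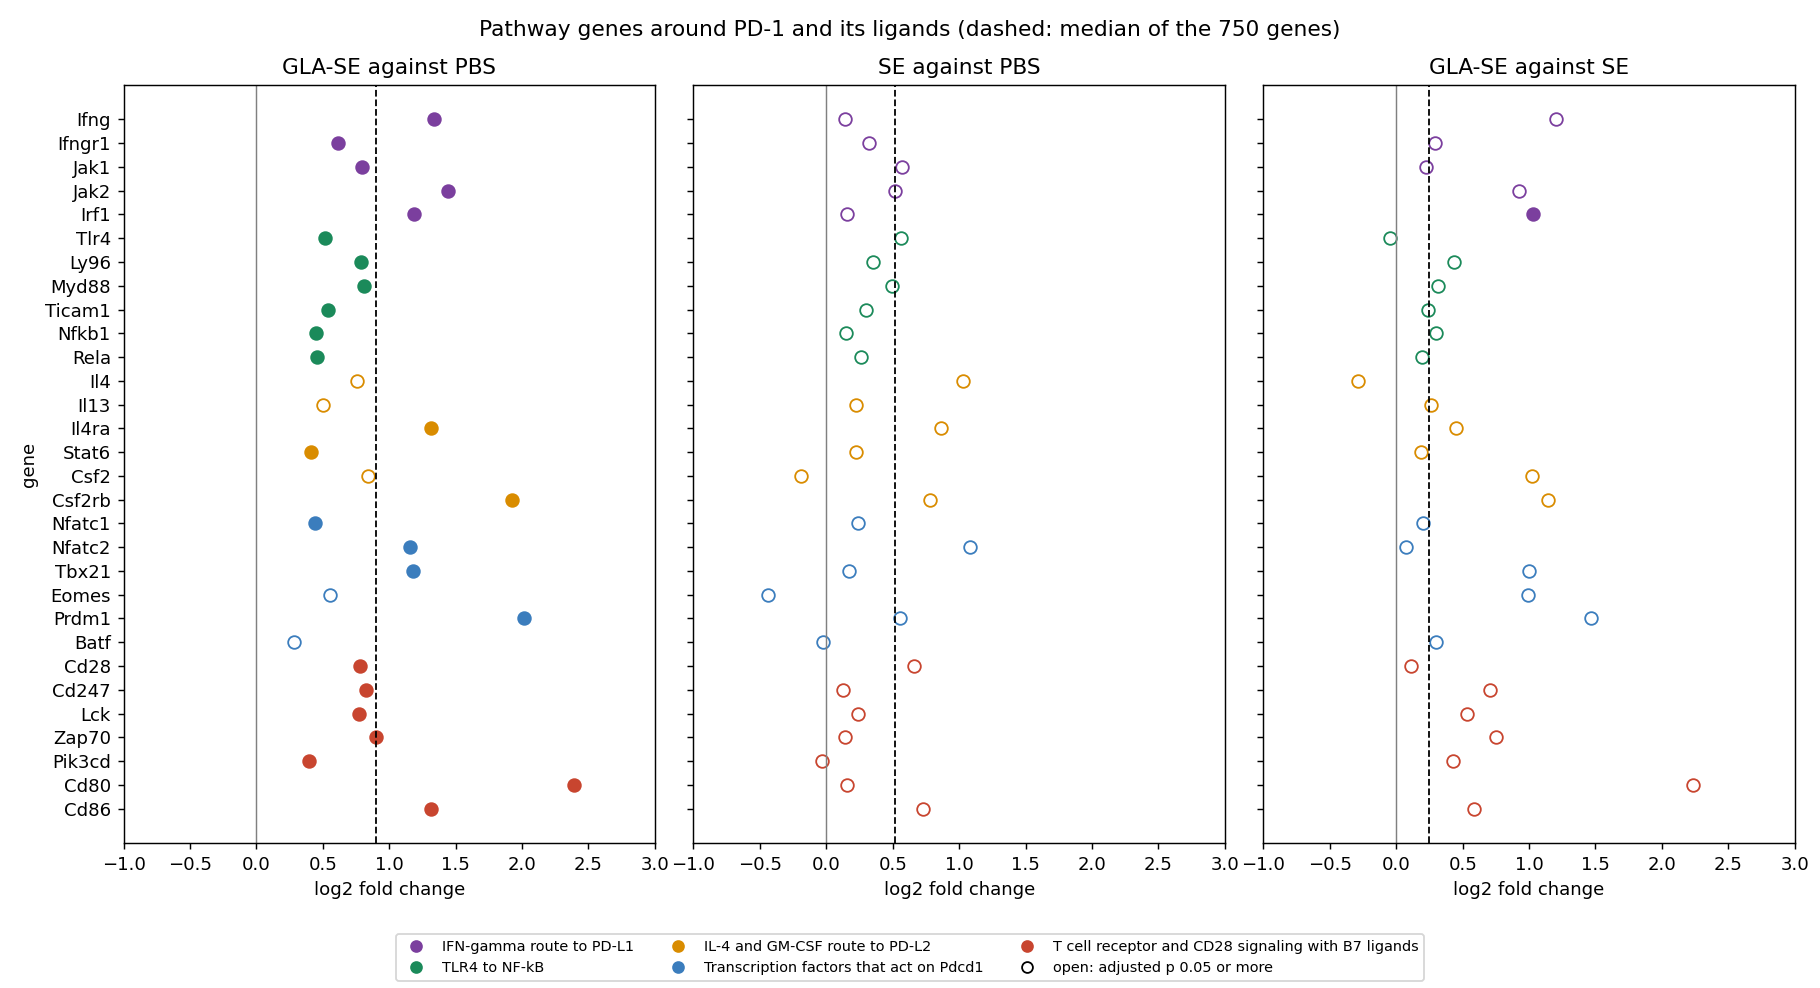
Log2 fold changes of the pathway genes in each comparison, colored by group of genes, with filled points for an adjusted p under 0.05 and a dashed line at the median of the 750 genes. Irf1 (1.03) is the point called for GLA-SE against SE, and no point is called for SE against PBS.

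The genes with the most similar profile were found by the mean absolute difference of log2 values, each centered on the PBS mean, over the 12 tumors and among 673 genes with a mean scaled count of at least 20. For Pdcd1 they were Cxcr6 (0.43), Lag3 (0.44), Tigit (0.44), Ctsw (0.47) and Klrc1 (0.48). Lag3 and Tigit are among those that encode other inhibitory receptors of T and NK cells. For Cd274 they were Socs1 (0.15), a feedback inhibitor of cytokine signaling, Irf4 (0.18), Prdm1 (0.18), Il12rb1 (0.19) and Fcgr2b (0.21). For Pdcd1lg2 they were Clec4n (0.17), Irgm2 (0.19), Gbp2b (0.21), Itgb2 (0.21) and Tnfrsf14 (0.23), with Irgm2 and Gbp2b being interferon-induced GTPases. The median distance to all candidates was 0.81 for Pdcd1, 0.61 for Cd274 and 0.54 for Pdcd1lg2. The ligands were not each other's nearest: Pdcd1lg2 ranked 86 for Cd274 and Cd274 ranked 78 for Pdcd1lg2, at a distance of 0.39. Pdcd1lg2 ranked 6 for Pdcd1, but at a larger distance of 0.48, and Pdcd1 ranked 226 for Pdcd1lg2.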

How the data were processed

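RNA of 12 tumors was counted on a 770-gene nCounter panel. The authors deposited whole-number barcode counts per gene and tumor. The study's methods name normalization in nSolver, but total counts and reference gene counts varied by tumor, so the values were treated as not yet normalized. Here library sizes were the geometric mean of 16 of 20 reference genes, selected by geNorm over all 12 tumors, without a filter on low counts. Pairs of groups were fitted with edgeR 4.0.16 in R 4.3.3 (quasi-likelihood test), with Benjamini-Hochberg adjustment over 750 genes and a threshold of 0.05. Exact permutation tests and log2 ratios used scaled counts plus 1. Groups came from the labels. Alternatives used DESeq2 1.42.0, limma 3.58.1, other scalings, a low count filter, a replicate block and leaving out tumors. The fits were also run on simulated counts made with the same scaling factors that the fits then used. Such a run cannot test the choice of scaling, and its outcome is not quoted here. Named genes were the 3 genes, those of the 5 pathway lists, and the 5 nearest profiles of each, and 1 gene of the interferon-gamma list is not reported here. The genes and lists were chosen with earlier results of these data known. The 4 tumors per group limit the precision.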

Additional observations from a re-analysis of the deposited data

How the results depend on the processing

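None of the 9 gene comparisons changed direction under any alternative. For GLA-SE against PBS, Cd274 was called in all of them, with log2 fold changes of 1.44 to 1.93 when a tumor was left out. Pdcd1 (0.93 to 1.61) fell short of the threshold with panel median scaling (0.0147), TMM (0.38), no scaling (1.00), all 12 tumors in 1 fit (1.30), DESeq2's own size factors (0.44) and the methods' t-test (1.36), and Pdcd1lg2 (1.10 to 1.44) with panel median scaling (0.0494), TMM (0.42) and DESeq2's own size factors (0.49). For GLA-SE against SE, calls were gained by Pdcd1 (1.52 to 2.19 without a tumor) with no scaling (2.10), all 12 tumors in 1 fit (1.89) and DESeq2 with reference gene (1.89) or its own size factors (1.40), by Cd274 (1.00 to 1.49) with 1 fit (1.33) and DESeq2 on reference genes (1.33), and by Pdcd1lg2 (1.23 to 1.60) with no scaling (1.54), 1 fit (1.46) and DESeq2 on reference genes (1.47) or its own factors (0.93). The same differences were smaller and uncalled with TMM (1.47, 0.80 and 1.01 for Pdcd1, Cd274 and Pdcd1lg2). For SE against PBS no call was gained, with Pdcd1 at -1.04 and -1.10, Cd274 at 0.06 and 0.12 and Pdcd1lg2 at -0.55 and -0.50 under TMM and no scaling. With the reference genes the ranges without a tumor were -0.90 to -0.28 for Pdcd1, 0.28 to 0.57 for Cd274 and -0.28 to -0.02 for Pdcd1lg2. The causes of these changes were not tested.

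Over the panel, GLA-SE against PBS gave 516 calls, 443 to 504 without a tumor, 368 with panel median scaling, 316 with TMM (148 higher, 168 lower), 346 with DESeq2's own factors (193 higher, 153 lower) and 255 with 1 fit. GLA-SE against SE gave 16 calls, 4 to 105 without a tumor (105 without SE tumor 4), 0 with panel median scaling, 3 with TMM, 89 with no scaling, 79 with 1 fit, and 119 or 80 with DESeq2 on reference genes or its own factors.

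The replicate numbers name different mice, and same-numbered tumors did not deviate together (correlations -0.11 to 0.13 for GLA-SE against PBS, -0.13 to 0.18 for SE against PBS and -0.25 to 0.15 for GLA-SE against SE, with 4, 2 and 2 of 8 tumors nearest their own number). A replicate block gave 1.36 for Pdcd1 against PBS (adjusted p = 0.0544) and 439 panel calls for GLA-SE against PBS and 0 for GLA-SE against SE.

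Of the within-tumor ratios, several changed sign when a tumor was left out: Pdcd1 to T cell markers for SE against PBS (-0.78 to 0.00887), Cd274 to monocyte and macrophage markers for GLA-SE against PBS (-0.0787 to 0.0803), SE against PBS (-0.71 to 0.32) and GLA-SE against SE (-0.33 to 0.70), Pdcd1lg2 to the same markers for GLA-SE against SE (-0.10 to 0.79), and Pdcd1lg2 to Cd274 for GLA-SE against SE (-0.0378 to 0.43). None of these ratio differences had been called. Cd274 to B-cell markers for GLA-SE against SE (1.02 to 1.47) had an exact permutation p of up to 0.0571 when a tumor was left out.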
